A study of Homo sapiens with 9 samples.

Results

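The genes described here are the translation initiation and elongation factors, taken as every gene whose symbol on the array platform starts with EIF or EEF and a digit. Probe sets assigned to several symbols, the EIF2AK kinase genes, pseudogenes and antisense genes were left out. The rule gave 54 genes, measured by 137 probe sets, out of 19775 genes with a symbol of their own and 54675 probe sets on each array. The gene EIF1AY was counted as a member, but its levels are not given. By name, 45 of the genes are EIF genes and 9 are EEF genes. A few familiar factors lay outside the rule because their probe sets carried more than 1 symbol: 16 such probe sets include those of EIF4A1, EEF1G and EEF1B2.

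Translation initiation factors assemble the small ribosomal subunit, the initiator tRNA and the mRNA at a start codon, and elongation factors then bring in aminoacyl-tRNAs and move the ribosome along the message. MYC is a transcription factor that pairs with MAX on E-box sequences, and genes of ribosome production and protein synthesis are among its best known targets in B cells. The eIF4E-binding proteins act in the opposite direction, holding the cap-binding protein away from its scaffold until the mTOR kinase phosphorylates them.

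RNA came from P493-6, an established human B-lymphocyte line in which an ectopic MYC gene can be switched off, and was hybridised to Affymetrix expression arrays. The study compared high Myc expression (4 arrays), low Myc expression (3 arrays) and no Myc expression (2 arrays). The labels name no drug, dose or time for the 3 states and do not say whether the arrays of a group came from separate cultures, so p-values cover the spread among these 9 arrays alone, and that spread may be technical. The line is a single engineered B-cell line, and all groups share that background.

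The deposited values were array intensities made with RMA, which were taken to log2. RMA gives all arrays nearly the same distribution of values (array medians of 75.3 to 80.3), so a change in total RNA per cell would not be visible, and differences are measured against the bulk of the genes. Where a gene had several probe sets, the probe set with the highest mean log2 value stood for it. A gene is said to have risen or fallen where its adjusted p was under 0.05 in limma (moderated test, 2-sided, Benjamini-Hochberg over 19775 genes). Such a gene is also said to have been called. Differences are in log2 units with their standard error, where 1 unit is a doubling.

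MYC itself checked the labels. Its log2 intensity was 13.64, 13.47, 13.91 and 13.57 on the high Myc arrays, 11.05, 11.30 and 10.49 on the low Myc arrays, and 11.45 and 8.70 for no Myc. On MYC, the library labelled no Myc replicate 1 therefore stood above every low Myc array, against its label. MYC rose by 3.57 ± 0.60 between no and high Myc (adjusted p = 0.00252 in limma), with 4.95 when no Myc replicate 1 was left out and 2.19 when no Myc replicate 2 was left out. Low Myc minus no Myc was 0.87 ± 0.64 (adjusted p = 0.484 in limma), and it was 2.25, and called, without no Myc replicate 1. The counts of called factors against no Myc are therefore given with and without that library, and calls lost without it are named. The differences of single factors come from the fit that includes it.

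Of the B-cell marker list, 9 of 10 genes were measured, none averaged under a log2 value of 6 in any group, and the mean over the list was 10.41 to 10.99 in high Myc, 10.57 to 10.78 in low Myc and 11.59 to 11.96 in no Myc. The 6 myeloid markers had array means of 5.34 to 5.62, 5.27 to 5.41 and 6.45 to 6.77 in the same order. In no Myc, 4 of the 6 averaged under 6, and LYZ (9.60 and 8.38) and ITGAM (10.53 and 10.06) did not. Over all arrays, the array mean of the 7 T and NK markers was 6.35 to 6.76, and that of the 6 fibroblast and epithelial markers 6.49 to 6.88. Single markers lay outside these ranges, such as CD3E (up to 7.93), NKG7 (down to 5.56) and COL1A1 (8.31 to 8.65). The 3-prime minus 5-prime log2 signal of GAPDH was 0.25 and 0.42 in no Myc, while the other arrays gave 0.01 to 0.24. For ACTB it was 0.00 and -0.01 in no Myc, within the other arrays' range of -0.07 to 0.19. The part of these shifts in the factor results was not tested.

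The promoters printed here come from the RefSeq table for GRCh38.p14, which gives 250 bases before and 50 bases after a gene's start, 5′ to 3′ on the gene's strand. They are shown because the E-box CACGTG, which reads the same on both strands, is the letter string that MYC and MAX are known to bind. All 5 were picked from the 11 factor promoters that hold it, and factors with larger differences, such as EIF4EBP1 and EIF3J, are not shown. EIF4E encodes the cap-binding protein, EIF4G1 the scaffold that joins it to the ribosome, EIF4A3 a DEAD-box helicase of the exon junction complex, and EIF2B3 a subunit of the factor that reloads eIF2 with GTP. These 4 genes rose in high Myc against no Myc, while EIF1B, a close relative of the start-codon factor eIF1, is the member that fell in low Myc against no Myc. Capitals mark CACGTG.
EIF4E: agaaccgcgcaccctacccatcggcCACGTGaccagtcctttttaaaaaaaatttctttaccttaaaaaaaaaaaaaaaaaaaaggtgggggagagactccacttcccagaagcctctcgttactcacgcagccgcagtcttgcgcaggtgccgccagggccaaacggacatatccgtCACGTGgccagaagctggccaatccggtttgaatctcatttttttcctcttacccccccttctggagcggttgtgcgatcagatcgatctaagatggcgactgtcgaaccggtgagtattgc
EIF4G1: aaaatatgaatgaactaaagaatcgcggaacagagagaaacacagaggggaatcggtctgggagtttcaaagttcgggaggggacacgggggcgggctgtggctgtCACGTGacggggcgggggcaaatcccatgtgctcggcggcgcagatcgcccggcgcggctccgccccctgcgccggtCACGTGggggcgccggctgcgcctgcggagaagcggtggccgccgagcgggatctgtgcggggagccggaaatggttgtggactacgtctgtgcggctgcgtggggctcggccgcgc
EIF4A3: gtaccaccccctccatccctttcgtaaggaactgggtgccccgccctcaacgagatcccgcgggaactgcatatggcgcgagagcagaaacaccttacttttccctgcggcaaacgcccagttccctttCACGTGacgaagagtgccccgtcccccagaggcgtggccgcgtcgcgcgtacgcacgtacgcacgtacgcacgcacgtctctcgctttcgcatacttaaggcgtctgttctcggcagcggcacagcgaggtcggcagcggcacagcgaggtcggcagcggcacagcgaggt
EIF2B3: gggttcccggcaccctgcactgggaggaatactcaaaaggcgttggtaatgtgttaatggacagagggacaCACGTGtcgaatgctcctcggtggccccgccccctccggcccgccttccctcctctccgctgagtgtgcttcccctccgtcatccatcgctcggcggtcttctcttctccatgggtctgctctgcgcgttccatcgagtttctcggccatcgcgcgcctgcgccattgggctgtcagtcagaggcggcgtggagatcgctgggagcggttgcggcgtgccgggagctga
EIF1B: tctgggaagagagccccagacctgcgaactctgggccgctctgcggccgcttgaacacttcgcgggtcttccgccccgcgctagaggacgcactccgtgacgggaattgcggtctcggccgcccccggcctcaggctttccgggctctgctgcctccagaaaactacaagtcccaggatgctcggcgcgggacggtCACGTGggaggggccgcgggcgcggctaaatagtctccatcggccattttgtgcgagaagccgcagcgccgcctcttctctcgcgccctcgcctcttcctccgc
The EIF4E window lies at chr4:98929084-98929383 on the minus strand and holds the E-box at 225 and 72 bases before the start. The EIF4G1 window (chr3:184314356-184314655, plus strand) also holds it in 2 places, 144 and 67 bases before the start. EIF4A3 (chr17:80147079-80147378, minus strand), EIF2B3 (chr1:44986546-44986845, minus strand) and EIF1B (chr3:40309457-40309756, plus strand) hold it once each, at 121, 179 and 54 bases before the start.

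CACGTG stood in 11 of the 42 factor promoters in the table (26.2%), in 1672 of the 15384 promoters of all genes on the arrays (10.9%), and in 2548 of all 35116 promoters (7.26%). Among the factors that rose in high Myc against no Myc, 7 of 23 promoters held it (30.4%), and among the factors not called there, 4 of 19 did (21.1%). Over all genes the corresponding shares were 400 of 2383 (16.8%) for those called higher and 1272 of 13001 (9.78%) for the rest. The other factor promoters with a match were those of EIF4H, EIF4B, EIF3K, EIF3F, EIF5A2 and EEF2K. These counts describe letters in a window of fixed length and were not tested.

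The widest comparison set high Myc against no Myc. Of the 54 factors, 29 rose and 0 fell in limma, whereas 14.2% of all genes tested rose and 9.0% fell. At an unadjusted p under 0.05 the counts were 32 (59.3%) higher and 2 (3.7%) lower, where 17.55% and 12.74% of all genes were. The median difference of the factors was 0.58, with 47 of 54 above 0, and the median over all genes was -0.01. By name, 27 of the 45 EIF genes and 2 of the 9 EEF genes rose, a difference that was not tested, and both of those EEF genes encode methyltransferases that modify elongation factors. Leaving out no Myc replicate 1 left 17 factors higher, where 9.11% of all genes were higher, and leaving out no Myc replicate 2 left 19, where 10.2% were. Both of these fits rest on 1 no Myc array, and the factor median stayed at 0.56 in each.

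**Figure D1:**
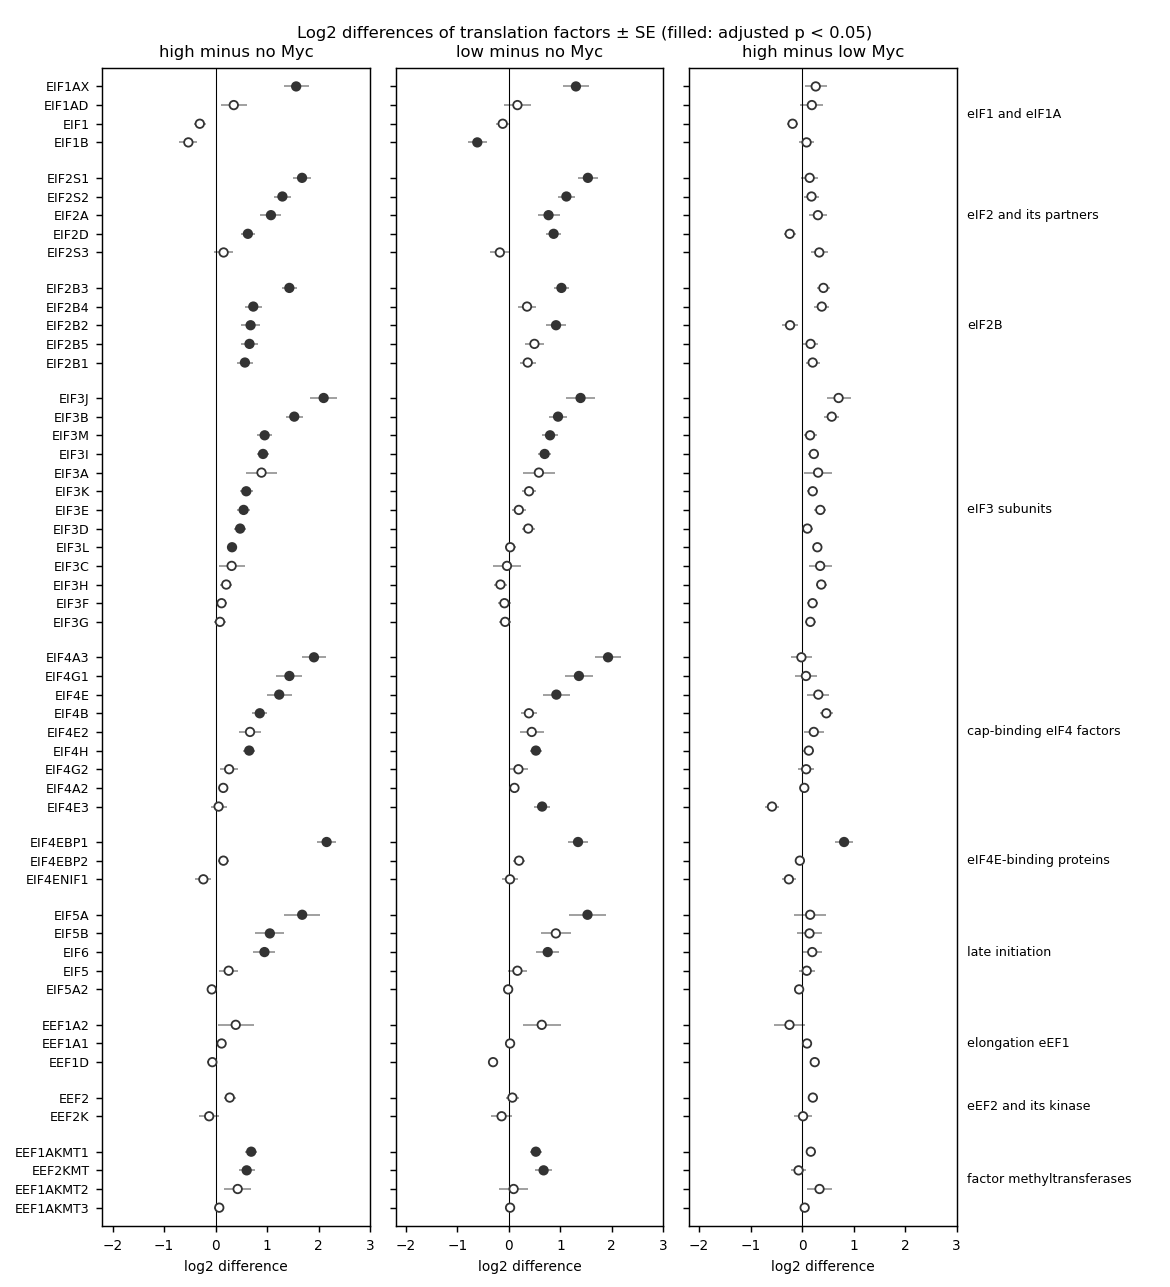
Log2 differences (x axis) of 53 factors (rows, grouped by role) in the 3 comparisons, as points with bars of ± 1 standard error from limma; filled points passed an adjusted p of 0.05. Most filled points lie to the right of 0 in the comparisons of high and low Myc with no Myc (29 and 21), and high against low Myc has 1.

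In low Myc against no Myc, 21 factors rose and 1 fell, against 11.3% and 8.55% of all genes. The factor median was 0.39 and the median of all genes 0.00 to 2 decimals, with 44 of 54 factors above 0. Leaving out no Myc replicate 1 left 10 higher and leaving out no Myc replicate 2 left 12, with 5.16% and 7.08% of all genes higher. This comparison shares its no Myc arrays with the previous one, so the 2 sets of differences are not independent and are given side by side for each gene. Leaving out low Myc replicate 3 gave 27 higher factors, with 14.4% of all genes higher.

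High Myc against low Myc called 1 factor higher (EIF4EBP1) and 0 lower in limma, where 2.33% of all genes were higher and 1.27% lower. After a repeated quantile normalization the calls over all genes split into 508 higher and 482 lower, compared with 460 and 252 on the deposited scale. At an unadjusted p under 0.05, 10 factors were higher and 1 was lower, against 1984 and 1269 of all genes. The factor median was 0.17, with 43 of 54 above 0, and that of all genes was 0.00. After repeated quantile normalization the factor median was 0.08.

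The calls of single factors depended to a varying degree on 1 array. In high Myc against no Myc, 15 of the 29 rises were called in all 9 fits that each left out 1 array. EIF3D, EIF3K, EIF5A and EIF6 lost their call without no Myc replicate 1, EIF4E without no Myc replicate 2, and EEF2KMT, EIF2B4, EIF2D and EIF3E without either. EIF2B1, EIF2B2, EIF2B5, EIF5B and EIF3L lost it without either no Myc array and also without 1 or more high Myc arrays. In low Myc against no Myc, EIF2B2, EIF3I, EIF4G1 and EEF1AKMT1 lost their call without no Myc replicate 1, EIF1AX, EIF3J and EIF3M without no Myc replicate 2, and EIF4H without either. EIF1B, EIF2A, EIF4E, EIF4E3, EIF5A, EIF6 and EEF2KMT lost it also without low Myc replicate 1. The 7 that held in every fit were EIF2B3, EIF2D, EIF2S1, EIF2S2, EIF3B, EIF4A3 and EIF4EBP1.

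The gene with the largest difference between high and no Myc was EIF4EBP1, which encodes the repressor that binds eIF4E until mTOR releases it. Its log2 intensity was 9.60, 10.28, 9.83 and 9.93 in high Myc, 9.27, 8.89 and 9.14 in low Myc, and 7.61 and 7.90 in no Myc. The 3 groups did not overlap, and the levels stood in the order high, low, no Myc. The difference was 2.16 ± 0.19 between high and no Myc (4.46-fold, adjusted p = 0.000159 in limma), 1.34 ± 0.20 between low and no Myc (adjusted p = 0.00209) and 0.81 ± 0.17 between high and low Myc (1.76-fold, adjusted p = 0.0364). The call between high and low Myc did not hold in 7 of the 9 leave-one-out fits, where the adjusted p reached 0.101: without high Myc replicates 3 or 4, any low Myc array or either no Myc array. It was also lost after a repeated quantile normalization, when only these 2 groups were fitted and with the replicate number as a block. The calls against no Myc held in all 9. Of its relatives, EIF4EBP2 differed by 0.15 ± 0.10 between high and no Myc and EIF4ENIF1, which carries eIF4E into the nucleus, by -0.24 ± 0.15, and neither was called.

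**Figure D2:**
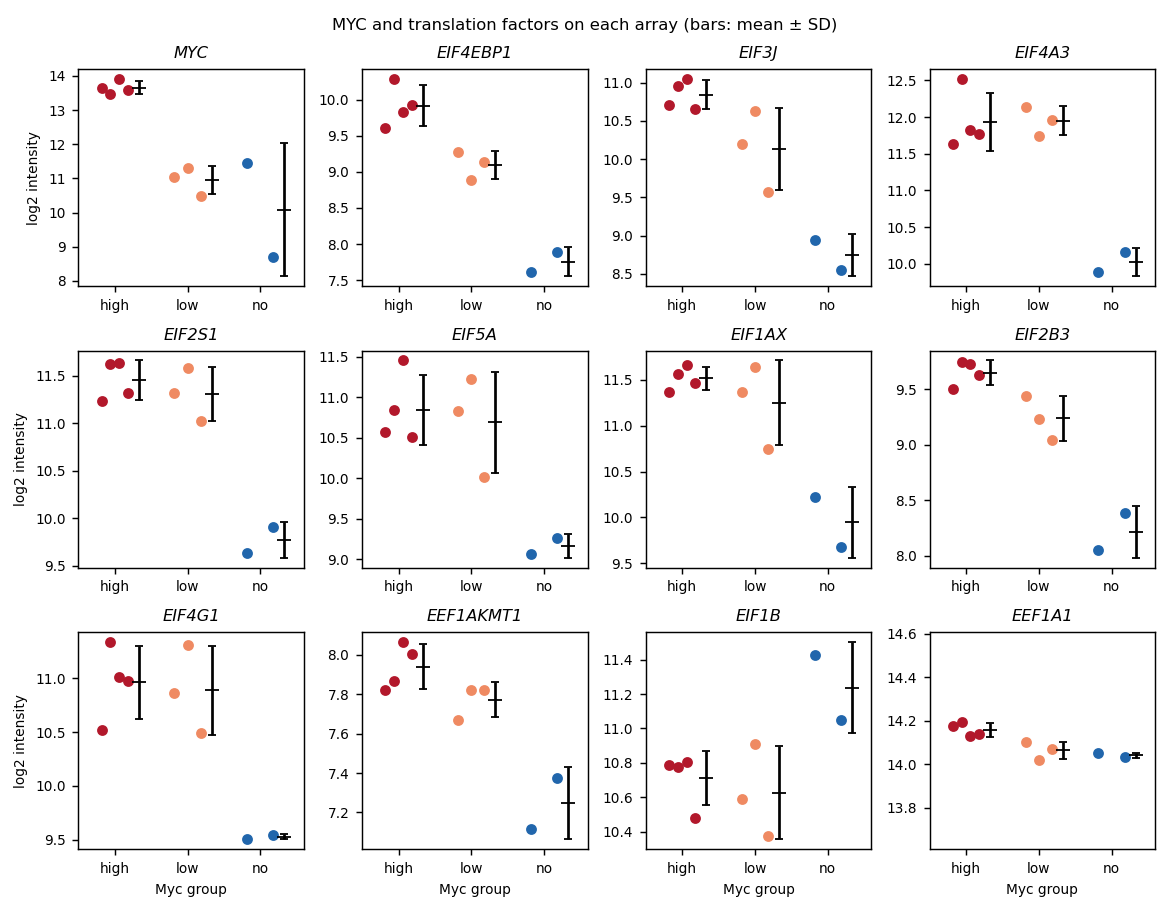
Log2 intensity (y axis) of MYC and 11 factors on each array, by Myc group; points are arrays and bars the group mean ± SD (n = 4, 3 and 2). EIF4EBP1 stood in separate ranges in the 3 groups, EIF4A3, EIF2S1 and EIF4G1 in high and low Myc overlapped above no Myc, EIF1B was highest in no Myc, and EEF1A1 lay between 14.02 and 14.19 on every array.

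In the class labelled cap-binding eIF4 factors, 5 of 9 genes rose in high Myc against no Myc. Not all of its genes bind the cap: EIF4A3, for one, is the helicase of the exon junction complex. EIF4A3 read 11.63, 12.52, 11.82 and 11.76 in high Myc, 12.14, 11.75 and 11.96 in low Myc, and 9.88 and 10.16 in no Myc. High and low Myc overlapped, and both stood above the 2 no Myc arrays. EIF4A3 was 1.91 ± 0.24 higher in high Myc (3.76-fold, adjusted p = 0.000572 in limma) and 1.93 ± 0.25 higher in low Myc (adjusted p = 0.00117) than in no Myc. High minus low Myc was -0.01 ± 0.21, a value whose sign turned in 5 of the alternatives.

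EIF4G1, the large scaffold of the cap complex, read 10.52, 11.34, 11.01 and 10.97 in high Myc, 10.87, 11.31 and 10.49 in low Myc, and 9.51 and 9.54 in no Myc. Its 2 no Myc arrays were nearly equal and lay under all others, and it was 1.43 ± 0.25 higher in high Myc (adjusted p = 0.00301 in limma) and 1.36 ± 0.26 higher in low Myc (adjusted p = 0.00685). The low Myc call was lost without no Myc replicate 1 (adjusted p = 0.0582). EIF4E read 11.07, 11.13, 11.07 and 10.73 in high Myc, 10.89, 11.06 and 10.10 in low Myc, and 9.85 and 9.68 in no Myc. Every high and low Myc array was above both no Myc arrays, although low Myc replicate 3 was close to them. It rose by 1.24 ± 0.24 in high Myc (adjusted p = 0.00554 in limma, and 0.0533 without no Myc replicate 2) and by 0.92 ± 0.26 in low Myc (adjusted p = 0.0343, lost in 6 of the 9 fits without 1 array).

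The helicase cofactors EIF4B and EIF4H rose by 0.86 ± 0.14 and 0.65 ± 0.12 in high Myc against no Myc, and both calls held without any single array. In low Myc EIF4H rose by 0.53 ± 0.12, while EIF4B, at 0.39 ± 0.15, was not called. EIF4E3, a divergent cap-binding relative of eIF4E, had another pattern. It read 5.97, 6.21, 6.11 and 6.18 in high Myc, 6.98, 6.45 and 6.68 in low Myc, and 5.93 and 6.19 in no Myc. The low Myc arrays stood above all others, while high and no Myc overlapped. It rose by 0.65 ± 0.16 in low Myc against no Myc (adjusted p = 0.0218 in limma). Its 3 other probe sets gave 0.11 to 0.30 without a call, and the call was lost with the median of all 4 (0.27), with only these 2 groups fitted and with the replicate block. High minus low Myc was -0.59 ± 0.14 (adjusted p = 0.0532), which passed the test in 4 of the alternatives. EIF4G2, a scaffold that does not bind eIF4E, differed by 0.26 ± 0.18 in high Myc and EIF4E2 by 0.67 ± 0.22, and neither was called. EIF4E2 passed the test in some alternatives, such as repeated quantile normalization (0.51, adjusted p = 0.0301 in limma). Its 4 probe sets gave -0.40 to 0.67, and none was called. The only EIF4A2 probe set with a symbol of its own read 3.94 to 4.18, near the floor of the arrays, so it says little about that helicase.

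eIF2 carries the initiator tRNA, and its subunits did not move alike. EIF2S1, the alpha subunit that stress kinases phosphorylate, read 11.23, 11.62, 11.63 and 11.32 in high Myc, 11.32, 11.58 and 11.02 in low Myc, and 9.64 and 9.91 in no Myc. The no Myc arrays lay more than 1 unit under every other array. EIF2S1 was 1.68 ± 0.18 higher in high Myc (3.21-fold, adjusted p = 0.000342 in limma) and 1.53 ± 0.19 higher in low Myc (adjusted p = 0.00106). EIF2S2, the beta subunit, rose by 1.30 ± 0.16 and 1.12 ± 0.17. These 4 calls held in all 9 fits without 1 array.

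EIF2S3, the gamma subunit that binds GTP and the tRNA, read 11.81, 11.57, 11.72 and 11.53 in high Myc, 11.53, 11.55 and 10.88 in low Myc, and 11.56 and 11.44 in no Myc. Its groups overlapped, and the differences of 0.16 ± 0.19 and -0.18 ± 0.20 were not called. A second EIF2S3 probe set differed by 0.76 ± 0.15 between high and no Myc (adjusted p = 0.00776 over all probe sets in limma), and its remaining probe set, at 0.34, was not called (adjusted p = 0.0928). EIF2A and EIF2D, which can deliver the initiator tRNA by other routes, rose by 1.08 ± 0.20 and 0.63 ± 0.13 in high Myc and by 0.77 ± 0.21 and 0.87 ± 0.14 in low Myc. The EIF2D call in high Myc was lost without either no Myc array, and the EIF2A call in low Myc in 7 of 9 fits.

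The 5 subunits of eIF2B, the exchange factor that reloads eIF2 with GTP, all rose in high Myc against no Myc, with a median of 0.68. EIF2B3, of the catalytic part, read 9.51, 9.75, 9.73 and 9.63 in high Myc, 9.44, 9.23 and 9.04 in low Myc, and 8.05 and 8.38 in no Myc. The groups did not overlap and stood in the order of the labels. EIF2B3 was 1.43 ± 0.14 higher in high Myc (2.70-fold, adjusted p = 0.000253 in limma) and 1.02 ± 0.15 higher in low Myc (adjusted p = 0.00199) than in no Myc, and high minus low Myc was 0.41 ± 0.13 (adjusted p = 0.119). EIF2B1, EIF2B2, EIF2B4 and EIF2B5 rose by 0.57 to 0.73 in high Myc. Without no Myc replicate 1, and likewise without no Myc replicate 2, EIF2B3 alone of the 5 was called. In low Myc against no Myc, EIF2B2 (0.92 ± 0.19) and EIF2B3 rose, and the other 3 were at 0.35 to 0.50.

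eIF3 is the largest initiation complex and holds the small subunit ready for the mRNA. Of its 13 subunit genes, 8 rose in high Myc against no Myc and 4 in low Myc, with medians of 0.55 and 0.38. EIF3J, a loosely attached subunit, read 10.71, 10.95, 11.05 and 10.66 in high Myc, 10.20, 10.63 and 9.57 in low Myc, and 8.94 and 8.55 in no Myc. Each high Myc array was above each low Myc array, and low Myc replicate 3 was the lowest of its group. EIF3J was 2.10 ± 0.26 higher in high Myc (4.29-fold, adjusted p = 0.000597 in limma) and 1.39 ± 0.28 higher in low Myc (adjusted p = 0.0076) than in no Myc, and the second call was lost without no Myc replicate 2 (adjusted p = 0.0672). High minus low Myc was 0.71 ± 0.23 (adjusted p = 0.146).

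EIF3B, the scaffold of the core, read 11.72, 11.84, 11.89 and 11.74 in high Myc, 11.26, 11.54 and 10.88 in low Myc, and 10.26 and 10.28 in no Myc. The groups were separate, and the high and no Myc arrays each lay close together. It rose by 1.53 ± 0.16 in high Myc (adjusted p = 0.000302 in limma) and by 0.96 ± 0.17 in low Myc (adjusted p = 0.00442). EIF3I and EIF3M rose by 0.92 ± 0.12 and 0.95 ± 0.15 in high Myc and by 0.70 ± 0.13 and 0.80 ± 0.15 in low Myc. With the median of probe sets EIF3M was at 0.22 and 0.04 in the 2 comparisons and EIF3B at 0.62 in low Myc, and these 3 calls were lost (adjusted p = 0.31, 0.937 and 0.0651 in limma). EIF3D, EIF3E, EIF3K and EIF3L rose in high Myc by 0.32 to 0.60, and EIF3L lost its call in 8 of the 9 fits without 1 array. EIF3A, the largest subunit, was at 0.89 ± 0.30 (adjusted p = 0.0655 in limma). It passed the test in some alternatives, such as the median of probe sets (0.94, adjusted p = 0.0125 in limma). EIF3F, EIF3G, EIF3H and EIF3C were at 0.09 to 0.31 without a call. The only EIF3C probe set with a symbol of its own was dim, with a mean of 6.29. Probe sets shared by EIF3C and EIF3CL were left out, so the value of 0.31 says little about that subunit. High minus low Myc was above 0 for all 13 subunits, from 0.10 to 0.71, where 10009 of all 19775 genes were. None was called, and 5 were higher at an unadjusted p under 0.05 in limma, where 10.03% of all genes were.

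eIF1 and eIF1A keep the scanning ribosome open until it meets a start codon. EIF1AX read 11.37, 11.56, 11.66 and 11.46 in high Myc, 11.37, 11.64 and 10.74 in low Myc, and 10.22 and 9.67 in no Myc. High and low Myc overlapped, and both lay above no Myc. It was 1.57 ± 0.24 higher in high Myc (2.96-fold, adjusted p = 0.00158 in limma) and 1.30 ± 0.25 higher in low Myc (adjusted p = 0.00698), the latter lost without no Myc replicate 2. All 4 of its probe sets were called higher in high Myc, by 1.57 to 2.50.

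EIF1B ran the other way. It read 10.79, 10.77, 10.80 and 10.48 in high Myc, 10.59, 10.91 and 10.37 in low Myc, and 11.43 and 11.05 in no Myc. Both no Myc arrays were above all others. It fell in low Myc against no Myc (-0.61 ± 0.18, 1.53-fold lower, adjusted p = 0.0464 in limma), but this call was lost in 7 of the 9 fits without 1 array and after centring each array on its median. High minus no Myc was -0.53 ± 0.17 (adjusted p = 0.0611), which passed the test after a repeated quantile normalization (-0.74, adjusted p = 0.0016). EIF1 was at -0.31 ± 0.11 in high Myc (adjusted p = 0.0985 in limma) and EIF1AD at 0.35 ± 0.26 (adjusted p = 0.45). The 7 EIF1 probe sets ran from -1.20 to 0.22 between high and no Myc, and none was called. Those at 0.06, 0.07, 0.10, 0.21 and 0.22 lay above 0. The lowest was a dim probe set that read 8.28 and 6.25 in no Myc, so the probe sets did not share a direction.

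Late factors join the subunits and keep the ribosome moving. EIF5A, whose hypusine-modified protein relieves stalled ribosomes, read 10.57, 10.84, 11.45 and 10.51 in high Myc, 10.83, 11.23 and 10.01 in low Myc, and 9.06 and 9.27 in no Myc. High and low Myc overlapped widely, and both were above no Myc. It was 1.68 ± 0.35 higher in high Myc (3.21-fold, adjusted p = 0.00681 in limma) and 1.53 ± 0.37 higher in low Myc (adjusted p = 0.0175), but its 2 other probe sets differed between high and no Myc by 0.62 ± 0.19 and 0.14 ± 0.16, neither called. Its call in high Myc was lost without no Myc replicate 1 (adjusted p = 0.0696). EIF5B, the GTPase of subunit joining, rose by 1.06 ± 0.28 and EIF6, which keeps the large subunit free until it is mature, by 0.95 ± 0.21 in high Myc. EIF5 was at 0.26 ± 0.18 without a call. Its 4 other probe sets gave 0.42 to 0.91, and the median of its probe sets was called at 0.83 (adjusted p = 0.0224 in limma). EIF5A2 read 4.12 to 4.28, near the floor. All 3 of the called late factors lost their call without no Myc replicate 1. In low Myc EIF6 rose by 0.75 ± 0.22 and EIF5B, at 0.91 ± 0.30, was not called (adjusted p = 0.0627 in limma). Of the 6 EIF5B probe sets, 2 were called higher in low Myc, and their median was called at 1.13 (adjusted p = 0.0245 in limma).

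The elongation factors proper gave no call with the probe sets that stood for them. EEF1A1, which delivers aminoacyl-tRNA, read 14.17, 14.19, 14.13 and 14.14 in high Myc, 14.10, 14.02 and 14.07 in low Myc, and 14.05 and 14.03 in no Myc. The high Myc arrays stood above the others by a narrow margin and lay close to the highest log2 value of any probe set on each array (14.26 to 14.43). High minus no Myc was 0.12 ± 0.08 (adjusted p = 0.414 in limma). A dimmer EEF1A1 probe set read 9.99, 9.83, 9.78 and 9.50 in high Myc, 8.89, 8.84 and 8.34 in low Myc, and 8.46 and 8.33 in no Myc, a difference of 1.38 ± 0.18 (adjusted p = 0.00121 over all probe sets in limma). The other 5 probe sets of the gene gave 0.04 to 0.33 between high and no Myc. Between high and low Myc the dimmer probe set was also called (1.08 ± 0.16, adjusted p = 0.017 over all probe sets in limma). There the other 5 gave 0.03 to 0.23 without a call.

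EEF2, the translocase, read 13.38, 13.38, 13.31 and 13.30 in high Myc, 13.27, 13.22 and 12.92 in low Myc, and 13.16 and 12.97 in no Myc. Each high Myc array was above every other array, and low and no Myc overlapped. High minus no Myc was 0.28 ± 0.12 (adjusted p = 0.148 in limma), and its other probe set gave 0.43 ± 0.12 (adjusted p = 0.0321 over all probe sets). EEF1A2, EEF1D and EEF2K, the kinase that inactivates eEF2, were at 0.39 ± 0.35, -0.06 ± 0.09 and -0.12 ± 0.19 in high Myc. At an unadjusted p under 0.05, 1 of these 5 genes (EEF2) was higher, where 17.55% of all genes were.

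The 2 EEF genes that rose modify the factors rather than act in elongation. EEF1AKMT1, a lysine methyltransferase of eEF1A, read 7.82, 7.87, 8.07 and 8.00 in high Myc, 7.67, 7.82 and 7.82 in low Myc, and 7.12 and 7.38 in no Myc. High and low Myc overlapped, and both were above no Myc. The difference was 0.69 ± 0.12 in high Myc (1.62-fold, adjusted p = 0.00235 in limma) and 0.53 ± 0.12 in low Myc (adjusted p = 0.0152, and 0.148 without no Myc replicate 1). EEF2KMT, which methylates eEF2, rose by 0.61 ± 0.16 and 0.68 ± 0.17. EEF1AKMT2 and EEF1AKMT3 were at 0.43 ± 0.27 and 0.07 ± 0.10 in high Myc, without a call.

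Many factors were read by more than 1 probe set. Of the 135 probe sets other than those of EIF1AY, 55 rose in high Myc against no Myc in a limma fit over all probe sets with a single symbol, of which 11.0% rose. The probe sets of 15 of 34 genes disagreed on the call, and 6 genes were called only by a probe set that did not stand for the gene: EEF1A1, EEF2, EIF2S3, EIF3A, EIF3H and EIF4EBP2. The probe sets of EIF2S1 (3) and EIF2S2 (2) were all called higher. In low Myc against no Myc, 4 genes were called only by a probe set that did not stand for them: EIF3K, EIF4B, EIF4EBP2 and EIF5B. With the median of probe sets the differences in low Myc against no Myc were smaller for EIF2S1 (0.72) and EIF2S2 (0.74), which kept their calls, and EIF5A was at 0.70 in high Myc, still called, and at 0.61 in low Myc, without a call. The EIF1B and EIF4E calls in low Myc were also lost with that median, and EIF4E in high Myc was then at 1.93 and EIF3E at 0.83. Of the 5 EIF4E probe sets, 3 were called, at 1.24 to 2.08, and the other two averaged 5.69 and 5.72, near the dim end of the scale.

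**Figure D3:**
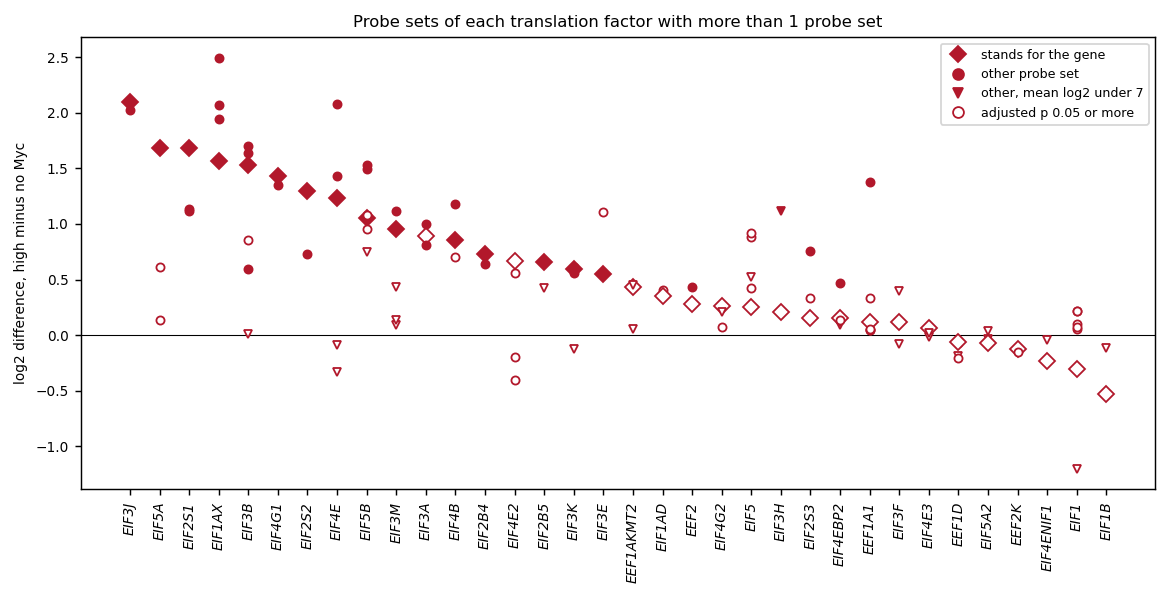
Log2 difference, high minus no Myc (y axis), of every probe set of the 34 factors with several (columns). A diamond stands for the gene, a triangle marks another probe set with a mean log2 value under 7, and open symbols were not called. The probe sets of EIF1AX all lie at 1.57 or above, while those of EEF1A1 reach from 0.04 to 1.38 and those of EIF5A from 0.14 to 1.68.

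The arrays of a group also differed among themselves. Low Myc replicate 3 was the lowest low Myc array for 45 of 53 factors (84.9%), compared with 38.4% of all genes, and its median distance from the rest of its group was -0.38. It also had the lowest MYC of the low Myc arrays. In high Myc, replicate 1 was the lowest for 24 factors (45.3%, against 27.3% of all genes) and replicate 4 for 21 (39.6%, against 19.2%). Replicate 2 was the highest for 25 factors (47.2%, against 23.2% of all genes). The no Myc arrays split evenly, with replicate 1, the library with the higher MYC, the lower of the pair for 28 of 53 factors (52.8%, against 48.3% of all genes).

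Genes that work beside these factors were read from a list of 52 genes, of which 49 were measured. In high Myc against no Myc, 22 rose and 4 fell, with a median of 0.45, where 14.2% and 9.0% of all genes did. Termination and ribosome recycling had 5 of 6 genes higher, led by ABCE1, the ATPase that splits the ribosome (2.50 ± 0.18, 5.67-fold, adjusted p = 0.000101 in limma), GSPT1, the release factor eRF3 (2.15 ± 0.29), and PELO, which rescues stalled ribosomes (1.76 ± 0.25). With the median of probe sets GSPT1 was at 1.03, still called, and PELO at 0.10, without a call (adjusted p = 0.649 in limma). Mitochondrial factors had 5 of 8 higher, led by TUFM, the mitochondrial EF-Tu (1.89 ± 0.22). Diphthamide synthesis, which modifies eEF2, had 4 of 6 higher. Cap and tail factors had 4 of 10 higher and 2 lower, and the mTOR arm had 3 of 7 higher.

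Of the 6 eIF2 kinase and phosphatase genes, 1 was called. EIF2AK2, the kinase PKR that responds to double-stranded RNA, fell by 1.35 ± 0.20 in high Myc and by 1.78 ± 0.21 in low Myc (adjusted p = 0.00131 and 0.000894 in limma). Both calls held without any single array. MKNK2 and MKNK1, kinases that phosphorylate eIF4E, fell by 0.77 ± 0.23 and 0.33 ± 0.10 in high Myc, but lost their calls in 5 and 6 of the 9 fits without 1 array. With the median of probe sets MKNK1 was at -1.12 (adjusted p = 0.000815 in limma). MTIF3, a mitochondrial initiation factor, fell by 0.43 ± 0.10 and lost its call without no Myc replicate 2 (adjusted p = 0.116 in limma) and with the median of probe sets (-0.096).

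In low Myc against no Myc, 16 of the 49 rose and 6 fell, where 11.3% and 8.55% of all genes did. ABCE1, PELO, GSPT1 and TUFM again had the largest rises (2.17 ± 0.19, 1.72 ± 0.27, 1.66 ± 0.31 and 1.43 ± 0.24), against the same no Myc arrays, but PELO and GSPT1 were at 0.16 and 0.49, without a call, when the median of their probe sets was used. After EIF2AK2, the called genes with the largest falls were TSC1, a brake on mTOR (-0.70 ± 0.14), MTRF1, a mitochondrial release factor (-0.67 ± 0.14), and PAIP2, an inhibitor of the poly(A)-binding protein (-0.61 ± 0.12). These 3 calls were lost without no Myc replicate 1, and that of MTRF1 turned sign when the median of its probe sets was used. Leaving out no Myc replicate 1 left 14 of the 49 higher in high Myc and 10 in low Myc, with 9.11% and 5.16% of all genes higher. High Myc against low Myc called RHEB, the GTPase that activates mTOR (0.74 ± 0.12, adjusted p = 0.0141 in limma, lost without high Myc replicates 3 or 4), and MTRF1 (0.58 ± 0.12, lost in 6 of the 9 fits), both higher. Both calls were lost with the median of probe sets.

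**Figure D4:**
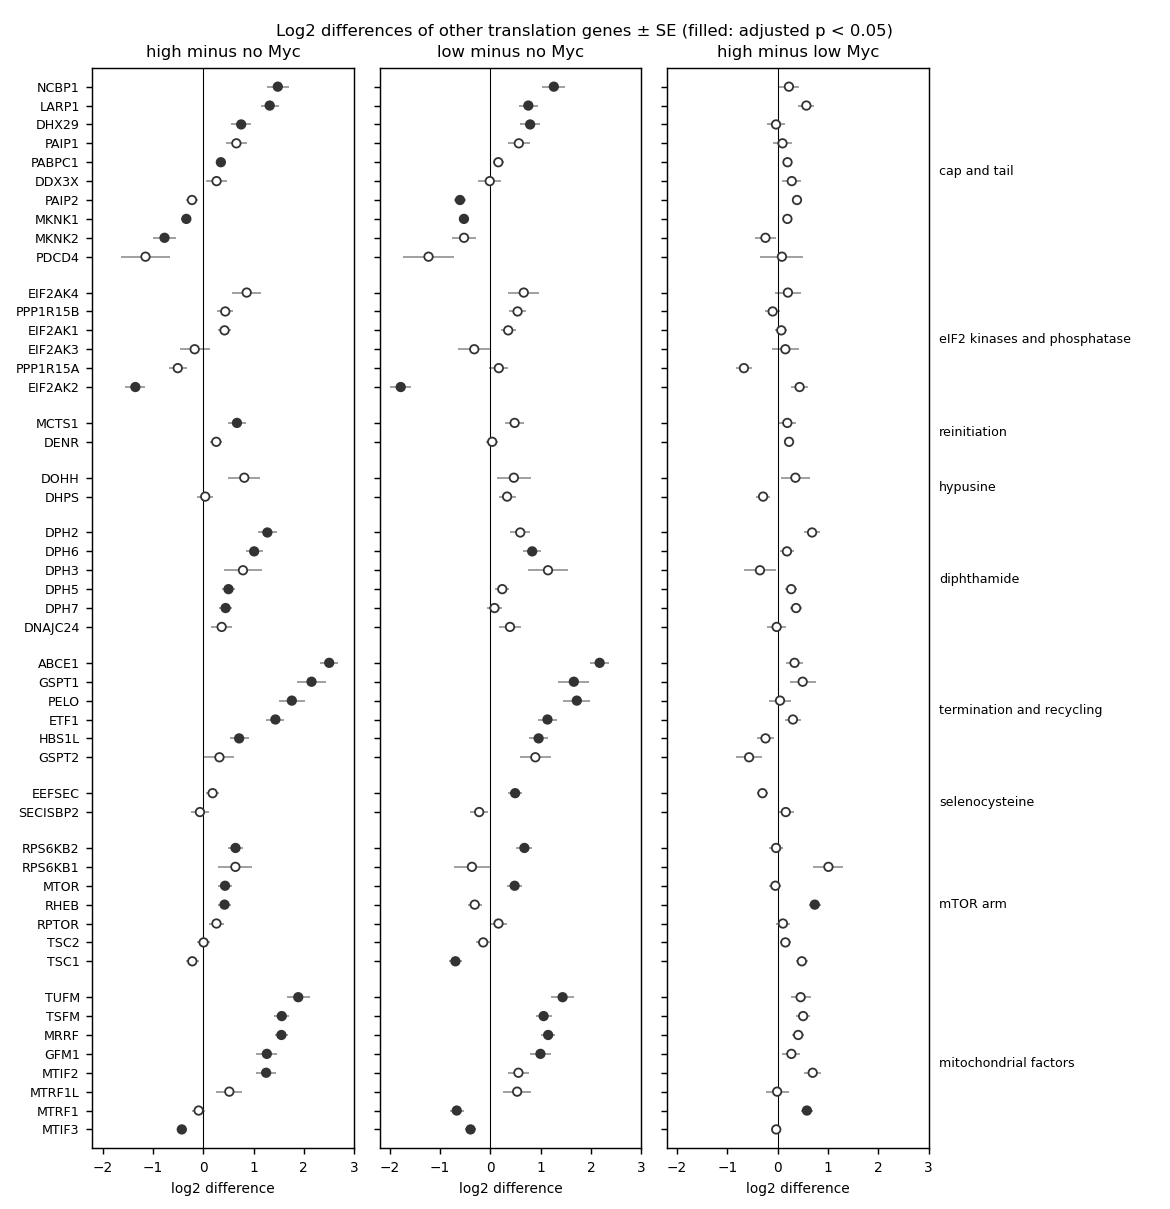
Log2 differences (x axis) of 49 other genes of translation (rows, grouped by role) in the 3 comparisons, with bars of ± 1 standard error from limma; filled points passed an adjusted p of 0.05. ABCE1 and GSPT1 lie farthest to the right in high Myc against no Myc, and EIF2AK2 lies to the left of 0 in both comparisons with no Myc.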

How the data were processed

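RNA of 9 P493-6 arrays (4 high Myc, 3 low Myc, 2 no Myc, grouped by their titles) was hybridised to Affymetrix arrays. Per the submitters' processing notes, the deposited intensity values were made with RMA, version not given, and array depth has no meaning here: the number of arrays limits the precision. Detection calls were not used here. The values, on a linear scale as the authors deposited them, were taken to log2. Gene symbols came from the platform annotation, updated through RefSeq gene identifiers: 41097 of 54675 probe sets had 1 symbol, 1801 several and 11777 none, and 41043 of the 41097 matched. The probe set with the highest mean stood for a gene.

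limma 3.58.1 in R 4.3.3 fitted all 3 groups together, without a filter or covariates, and adjusted over 19775 genes (Benjamini-Hochberg). The code was tested on simulated data. The members and gene lists were chosen with earlier results of these data known. Values on every array were given for the called members with the largest differences (up to 6 per direction and comparison) and for the called member with the largest difference of each role class. Other members given so, namely EIF4E, EIF4E3, EIF2S3, EIF3B, EEF1A1 and EEF2, and single probe sets were chosen after their values were seen. Of the pathway list, up to 4 called genes per direction and comparison were named. MYC and the pathway genes were also run under the alternatives, as a choice made after seeing the data. Of the 7 same-numbered pairs of arrays, those numbered 1 correlated in their deviations (0.25 to 0.47), those numbered 2 weakly (0.03 to 0.10) and the pair numbered 3 negatively (-0.31), so the numbers were not taken as pairs. Protein sequences were not used here.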

Additional observations from a re-analysis of the deposited data

Results flagged for a closer look

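In groups of 4 arrays, a value was picked out where its gap to the nearest of the others divided by the group's range exceeded Dixon's 95% critical value. Of 53 factors tested in high Myc, 4 were picked out, and chance flags about 1 in 20 groups. On high Myc replicate 4, EIF1B read 10.48 (10.77 to 10.80 on the others), EIF4E read 10.73 (11.07 to 11.13) and EIF4G2 read 12.21 (12.45 to 12.47), each the lowest of the group. On high Myc replicate 2, EIF4EBP2 read 9.97 (9.83 to 9.85 on the others), the highest of the group.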

How the results depend on the processing

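Between high and no Myc the main counts were 29 higher and 0 lower, between low and no Myc 21 and 1, and between high and low Myc 1 and 0. With each array left out in turn, the higher counts ranged from 17 to 31, 10 to 27 and 0 to 2, and the lower counts from 0 to 1, 0 to 2 and 0 to 1, in the same order. Without either no Myc array the fit rests on 1 such array, assumed to vary like the other groups. Of the 29, 22 and 1 called factors, 15, 7 and 0 were called in every one of the 9 such fits. An adjusted p of 0.01 gave 19, 13 and 0 higher and 0 lower in each comparison. The share of all genes at that threshold was not counted, so these counts have no background beside them. Counting probe sets gave 55, 34 and 2 higher and 0 lower, where 11.0%, 8.17% and 1.44% of all probe sets with 1 symbol were higher. Of all those probe sets, 7.99%, 7.78% and 0.76% were lower. Fitting only the 2 groups compared gave 30 higher and 1 lower, 14 and 0, and 0 and 0. Of all genes, 15.15%, 8.19% and 1.44% were then higher and 9.12%, 6.60% and 0.61% lower. Repeated quantile normalization gave 28 and 2, 22 and 2, and 1 and 2. The shares of all genes were 13.7% and 10.7%, 12.8% and 9.40%, and 2.57% and 2.44%. A median over probe sets gave 32, 19 and 1 higher and 0 lower, where 12.7%, 9.80% and 1.66% of all genes were higher. With that median, 8.05%, 7.48% and 0.89% of all genes were lower. The replicate block, for numbers the data did not show to pair arrays, gave 26, 20 and 0 higher and 0 lower. With it, 13.1%, 10.25% and 0.61% of all genes were higher and 7.28%, 7.32% and 0.17% were lower. A filter at a mean log2 of 5 gave 1 lower between high and low Myc, as did the trended prior, which gave 0 lower between low and no Myc, as did centring. Between high and low Myc, 1.595% (filter) and 1.345% (trended prior) of all genes were lower. Between low and no Myc, 8.22% (trended prior) and 7.66% (centring) were. The factors lower under some alternative were EIF1 and EIF1B between high and no Myc, EEF1D and EIF1B between low and no Myc, and EIF2D and EIF4E3 between high and low Myc. The scalings moved the median of all genes by under 0.1, while repeated quantile normalization took the factor median from 0.58 to 0.41, from 0.39 to 0.30 and from 0.17 to 0.08.

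Some differences changed sign. Between high and low Myc, EIF1B was -0.026 after quantile normalization, and -0.041 (without low Myc replicate 3) to 0.23 with 1 array left out. EIF4A3 was 0.042 with the replicate block, and -0.21 to 0.087 with 1 array left out (above 0 without high Myc replicates 1, 3 or 4 or low Myc replicate 1). EIF4G1 was -0.025 after quantile normalization and -0.13 to 0.28 with 1 array left out (below 0 without replicate 2 of high Myc or 3 of low Myc), and EIF5A was -0.18 to 0.42 (below 0 without replicate 3 of either group). With the median of probe sets MTRF1 was 0.23 between low and no Myc and -0.092 between high and low Myc. MYC between low and no Myc was -0.50 without replicate 2 of no Myc and 2.25, then called, without its replicate 1. The cause of these changes was not tested. The number of arrays limits the precision, and values near 4 or 14 on the log2 scale lie at the ends of its range.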
